A study of Danio rerio with 36 samples.

Results

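Fatty acids are made, given double bonds and lengthened by a short chain of enzymes, and 10 gene symbols of that chain were looked up in the count tables of zebrafish larval heads: fasn, acaca, acacb, acly, scd, fads2, elovl2, elovl5, elovl6 and thrsp. Of the 10 symbols, 7 named a row in both tables, out of 24023 symbols that the tables share, and all 7 passed the filter on low counts in both experiments. The 7 are acaca, acacb, scd, fads2, elovl2, elovl5 and elovl6, while fasn, acly and thrsp are not analysed here. The rule uses gene symbols only and no measured value, but the symbols were chosen with earlier results of these data known.

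RNA was measured in 36 libraries of pooled heads, cut in front of the swim bladder of larvae 10 days after fertilization, in 2 experiments with the same 3 groups. All larvae came from one mixed wild-type line with no stated transgene or mutation. Conventional larvae were colonized in the normal way and axenic larvae were free of microbes. Re-colonized larvae were first made axenic and then received microbes on day 1, so that they share the derivation with the axenic larvae and the microbes with the conventional ones. In experiment 1, from total RNA after removal of ribosomal RNA, there were 6 libraries of each group, lettered A, C, D, F, G and H (axenic), B and D to H (re-colonized) and A to C and F to H (conventional). In experiment 2, from polyA-selected RNA, there were 4 axenic libraries (1, 3, 4 and 7) and 7 each of re-colonized and conventional heads (1 to 7). The sources used here do not give the number of heads per pool, and no label ties a pool to its own spawn. The p-values therefore measure the spread between these pools, which may be technical.

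Acetyl-CoA carboxylase joins carbon dioxide to acetyl-CoA to give malonyl-CoA, the building block that fatty acid synthase and the elongases add to a growing chain. Stearoyl-CoA desaturase puts the first double bond into saturated chains, whereas the polyunsaturated acids of brain and retina membranes are made from dietary precursors by fads2 and by elovl5 and elovl2 in turn. In vertebrate liver fatty acid synthesis is driven by srebf1 (SREBP-1) with insulin and sugar. Malonyl-CoA also inhibits the carnitine palmitoyltransferase that admits fatty acids to mitochondria for oxidation.

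Total counts per library lay between 11716737 and 15017645 in experiment 1 and between 15148068 and 25760598 in experiment 2. Some libraries stand apart. In experiment 2 re-colonized 1 and 7 had the highest TMM scaling factors, 1.55 and 1.38, and axenic 7 had the highest fads2 and elovl2 of that experiment. By the marker sums given below, axenic 7 was also highest for intestine (7941 CPM) and lowest for radial glia and myelin (2180 CPM) there. Re-colonized 1 was lowest for liver (483.2 CPM) and intestine (606.7 CPM). In experiment 1 axenic A and F had the highest fads2, elovl2, elovl5 and elovl6. For the 7 genes, calls that rest on these libraries are given with and without them. Counts of pathway and marker lists come from all libraries and were not repeated without them. The joint omission of A and F, or of re-colonized 1 and 7 with axenic 7, was chosen after seeing the data. Library titles of experiment 1 carry one mark for axenic and re-colonized and another for conventional heads, whose meaning is not given, so that comparisons with conventional heads cannot be told apart from that mark, whereas axenic and re-colonized heads share it. In experiment 2 some numbers in conventional titles repeat those of axenic or re-colonized titles, while no number repeats within either set. The meaning is not given, so comparisons with conventional heads there may carry a similar split. Levels below are CPM, counts scaled to library size by edgeR's cpm with TMM factors, as mean ± SD over libraries. They are not compared between genes, because no transcript lengths were used, nor between experiments, because the RNA was selected differently. Fold changes are on the log2 scale ± SE from edgeR's quasi-likelihood test, with p-values adjusted by Benjamini-Hochberg over all genes tested and a gene called below 0.05.

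In axenic heads fads2 and elovl2, a desaturase and an elongase of polyunsaturated chains, were higher, and in experiment 1 scd, a desaturase of saturated chains, was lower. scd was scarce there, with 10 to 45 counts per library, and scdb, the other stearoyl-CoA desaturase, was not called. In experiment 1, fads2 was 6.02-fold and elovl2 3.39-fold higher than in conventional heads, elovl6 was 1.74-fold and acacb 1.54-fold higher, and scd was 2.38-fold lower. That comparison cannot be told apart from the title mark, which axenic and re-colonized heads share. Against re-colonized heads fads2 was 5.23-fold and elovl2 3.51-fold higher, elovl6 was 1.65-fold and acacb 1.5-fold higher, and scd was 2.17-fold lower. The same 4 genes were higher against conventional heads of experiment 2, by 5.22-fold for fads2, 4.83-fold for elovl2, 1.76-fold for elovl6 and 1.75-fold for acacb. Those calls of experiment 2 rest on axenic 7: without it the log2 fold changes were 1.67 for fads2 and 1.49 for elovl2, down from 2.38 and 2.27, with 0.68 for both elovl6 and acacb, and none of the 4 passed. The call of elovl6 was also lost without certain other single libraries, and its calls of experiment 1 were lost without axenic A and F together. Against re-colonized heads of experiment 2 fads2 was 5.15-fold, elovl2 3.4-fold and elovl6 1.77-fold higher, and acacb was not called (edgeR adjusted p = 0.143). There, too, fads2, elovl2 and elovl6 were not called without axenic 7. The calls of elovl2 and elovl6 were also lost without certain other single libraries. Every axenic library also had a higher sum of 20 liver marker genes than any colonized library of its experiment. Other marker lists differed as well in experiment 1. Against conventional heads 9 of 16 radial glia and myelin markers were called higher, and 7 of 17 intestine markers higher with 2 lower. Of all genes, 8.89% were called higher and 6.71% lower there. The part of these tissues in the results was not tested. In bulk samples more cells of a type and more RNA per cell cannot be told apart.

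Of the 7 genes, edgeR called 4 higher and 1 lower in axenic against conventional heads of experiment 1, where 15.6% of 19727 genes were called in either direction, 8.89% higher and 6.71% lower. Against re-colonized heads it called 4 higher and 2 lower, where the share of all genes was 16.9%, 8.67% higher and 8.27% lower. In experiment 2 it called 4 of 7 higher against conventional heads, where 6.13% of 20169 genes were called, 3.99% higher and 2.15% lower, and 3 of 7 higher against re-colonized heads, where 3.89% were called, 3.25% higher and 0.640% lower; without axenic 7 it called 0 of 7 in both comparisons, with 391 and 165 genes called in all. The median log2 fold change of the 7 genes was 0.62, 0.58, 0.81 and 0.53 in these 4 comparisons, beside −0.01, 0.01, 0.04 and −0.01 for all genes tested. Both comparisons of an experiment use the same axenic libraries and are not independent. The 7 genes were chosen with earlier results of these data known, so these shares do not test them as a set.

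Between re-colonized and conventional heads none of the 7 genes was called by edgeR, by DESeq2 or by limma voom, and 0 of 7 had an unadjusted edgeR p below 0.05, in either experiment. The shares of all genes called by edgeR there were 0.0152% in experiment 1, or 3 genes (0.0101% higher and 0.00507% lower), and 0.00% in experiment 2, where 2751 genes had an unadjusted p below 0.05 and DESeq2 called 120. The median log2 fold change of the members was 0.05 in experiment 1 and 0.02 in experiment 2. The 95% intervals of these differences ran from −0.68 to 1.08 on the log2 scale for fads2 in experiment 1 and from −0.38 to 1.40 for elovl2 in experiment 2.

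**Figure D1:**
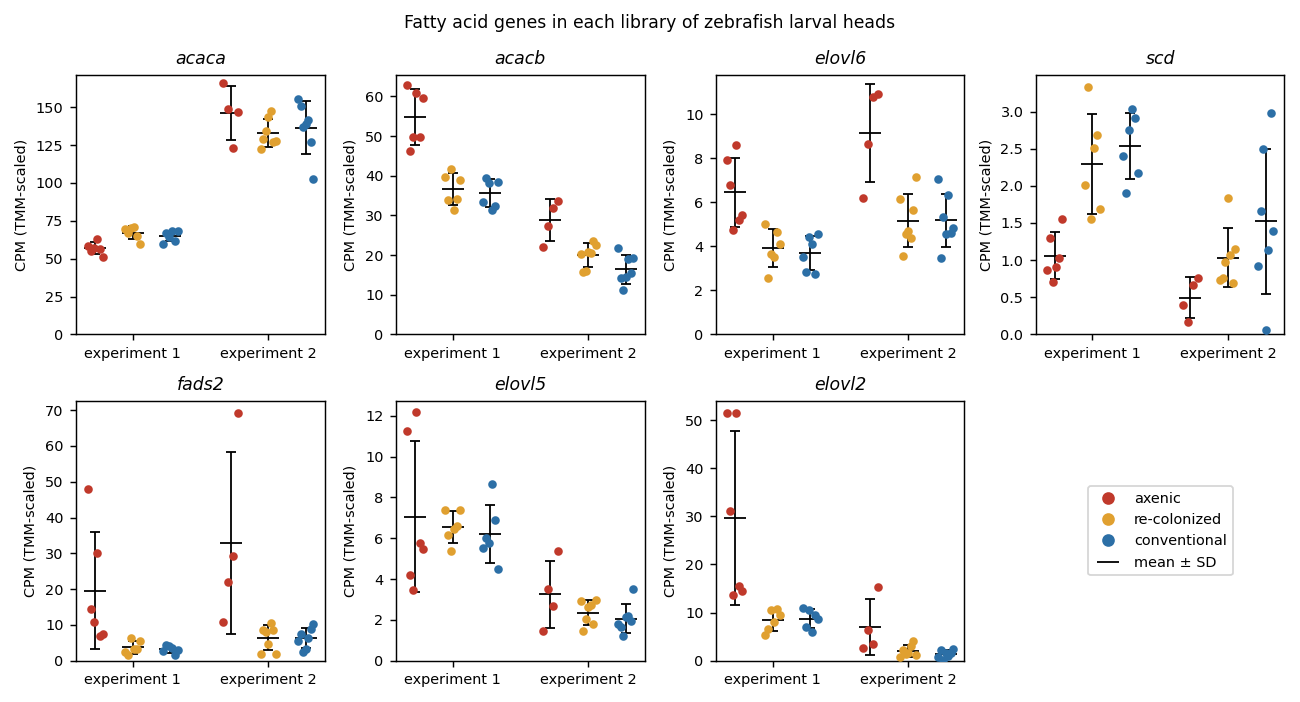
CPM with TMM factors (vertical axis, a scale of its own per gene) in each library, with the mean and SD of each group, for the 7 genes in both experiments. In experiment 1 all 6 axenic points of acacb, fads2 and elovl2 lie above every colonized point, and in experiment 2 all 4 axenic points of fads2 do. The share of all genes that separate in this way was not computed.

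The plot of levels by library shows groups that separate for some genes and wide axenic groups for others. How many of all genes separate in this way was not counted, so separation is not read here as particular to these genes. The carboxylases open the pathway. acacb (chromosome 5, 19337108 to 19383695, plus strand, GRCz11 as in all coordinates here) encodes acetyl-CoA carboxylase beta, the form that in mammals sits at the mitochondrial surface. Its level in the axenic libraries A, C, D, F, G and H of experiment 1 was 62.9, 46.1, 49.8, 60.8, 49.9 and 59.5 CPM. It ran from 31.3 through a median of 36.6 to 41.6 CPM in re-colonized and from 31.4 through 35.9 to 39.4 CPM in conventional heads. The axenic libraries thus lay above all 12 colonized ones. Its log2 fold change was 0.62 ± 0.10 against conventional (edgeR adjusted p = 6.12e-05) and 0.58 ± 0.10 against re-colonized heads (edgeR adjusted p = 0.00012).

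In experiment 2 acacb stood at 22.0, 27.4, 32.0 and 33.7 CPM in axenic 1, 3, 4 and 7, at 15.7 to 23.6 CPM with a median of 20.4 in re-colonized, and at 11.1 to 21.7 CPM with a median of 15.6 in conventional heads. All 4 axenic libraries were above the conventional range, and 3 of 4 were above the re-colonized range. The log2 fold change was 0.81 ± 0.19 against conventional heads (edgeR adjusted p = 0.0119) and 0.53 ± 0.19 against re-colonized heads, which did not pass (edgeR adjusted p = 0.143). Without axenic 7 the value against conventional heads was 0.68 and no longer passed (edgeR adjusted p = 0.0925).

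acaca (chromosome 5, 56308622 to 56416189, minus strand) encodes acetyl-CoA carboxylase alpha, the cytosolic form that supplies synthesis. Its level ran from 51.0 through a median of 56.8 to 62.9 CPM in axenic heads of experiment 1, from 59.6 through 68.4 to 70.8 CPM in re-colonized and from 60.0 through 65.9 to 68.2 CPM in conventional heads. Of the 6 axenic libraries, 5 lay below all colonized ones and axenic F lay within them. The log2 fold change against re-colonized heads was −0.24 ± 0.07 (edgeR adjusted p = 0.0234), and against conventional heads −0.19 ± 0.07, which did not pass (edgeR adjusted p = 0.074). These calls sit near the threshold, and that against re-colonized heads was lost with the replicate block described at the end. Against re-colonized heads the call was lost without axenic H (−0.21, edgeR adjusted p = 0.0561), without re-colonized E (−0.23, edgeR adjusted p = 0.0528) and in a fit of the 2 groups alone (edgeR adjusted p = 0.0539), while against conventional heads it was gained without axenic F (−0.23, edgeR adjusted p = 0.0444) and with DESeq2 (adjusted p = 0.035).

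The carboxylases had opposite signs in experiment 1, a difference between genes that was not tested. In experiment 2 acaca stood at 165.8, 149, 122.8 and 146.7 CPM in axenic 1, 3, 4 and 7, beside 122.6 to 147.6 CPM in re-colonized and 102.7 to 155.7 CPM in conventional heads, and the groups overlapped. Its log2 fold changes were 0.10 ± 0.16 and 0.13 ± 0.16 against conventional and re-colonized heads (edgeR adjusted p = 0.784 and 0.771), with 95% intervals of −0.21 to 0.41 and −0.18 to 0.45.

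elovl6 (chromosome 14, 36231126 to 36268711, plus strand) encodes the elongase that lengthens saturated and monounsaturated chains. In experiment 1 it stood at 7.93, 6.80, 4.76, 8.63, 5.20 and 5.41 CPM in axenic A, C, D, F, G and H, at 2.58 to 5.03 CPM with a median of 3.88 in re-colonized and at 2.75 to 4.56 CPM with a median of 3.82 in conventional heads. All 6 axenic libraries were above the conventional range and 5 of 6 above the re-colonized range. edgeR gave log2 fold changes of 0.80 ± 0.18 against conventional (edgeR adjusted p = 0.00308) and 0.72 ± 0.18 against re-colonized heads (edgeR adjusted p = 0.00631). Without axenic A and F together it was 0.58 and 0.50 and did not pass (edgeR adjusted p = 0.0556 and 0.0946). The call against re-colonized heads was also lost with the replicate block described at the end.

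In experiment 2 elovl6 stood at 6.22, 8.67, 10.8 and 10.9 CPM in axenic 1, 3, 4 and 7, at 3.56 to 7.15 CPM with a median of 4.72 in re-colonized and at 3.49 to 7.09 CPM with a median of 4.83 in conventional heads. Axenic 1 lay within both colonized groups and the other 3 lay above them. Against either group the log2 fold change was 0.82 ± 0.23 (edgeR adjusted p = 0.0336 against conventional and 0.0428 against re-colonized heads). Single libraries decide these calls. The call against conventional heads was lost without axenic 3, 4 or 7 or conventional 2, 3, 4, 6 or 7, at log2 fold changes of 0.68 to 0.84 (edgeR adjusted p = 0.0526 to 0.177). Against re-colonized heads it was lost without re-colonized 2, 3, 4, 5 or 6, axenic 3, 4 or 7 or conventional 3, 4 or 6, at 0.70 to 0.85 (edgeR adjusted p = 0.0543 to 0.234). With the replicate block both calls were lost as well.

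scd (chromosome 12, 48390715 to 48404673, plus strand) encodes a stearoyl-CoA desaturase, which makes oleate-type acids from saturated ones. It was scarce, with 10 to 45 counts per library in experiment 1 and 1 to 59 in experiment 2. The axenic libraries of experiment 1 stood at 0.865, 1.30, 0.711, 0.905, 1.03 and 1.56 CPM in A, C, D, F, G and H, beside 1.55 to 3.33 CPM with a median of 2.26 in re-colonized and 1.91 to 3.04 CPM with a median of 2.58 in conventional heads. All 6 axenic libraries lay below the conventional range, and 5 of 6 below the re-colonized range, with axenic H at the level of the lowest re-colonized library. scd fell by 1.25 ± 0.23 on the log2 scale against conventional heads (edgeR adjusted p = 0.000559) and by 1.12 ± 0.24 against re-colonized heads (edgeR adjusted p = 0.00172). Leaving out any 1 library kept both calls.

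In experiment 2 scd stood at 0.398, 0.164, 0.671 and 0.756 CPM in axenic 1, 3, 4 and 7, at 0.688 to 1.84 CPM with a median of 0.973 in re-colonized heads and at 0.0616 to 2.98 CPM with a median of 1.39 in conventional heads. The lowest value of the experiment was that of conventional 4, which held 1 count. Against conventional heads the log2 fold change was −1.62 ± 0.59 (edgeR adjusted p = 0.108) and against re-colonized heads −1.05 ± 0.58 (edgeR adjusted p = 0.433), and neither passed. Against conventional heads scd was called without conventional 4 (−1.88, edgeR adjusted p = 0.0245) and by DESeq2 (−1.68, adjusted p = 0.0335).

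scdb, the other stearoyl-CoA desaturase of the zebrafish, is named here for its relation to scd, after its values were seen. In experiment 1 it stood at 34.7 ± 1.85 CPM in axenic, 32.4 ± 3.50 in re-colonized and 34.2 ± 1.74 in conventional heads (SD, n = 6 each). Its log2 fold change in axenic heads lay between −0.12 and 0.21 in the 4 comparisons, none of which passed (edgeR adjusted p = 0.453 to 0.897). Whether scd and scdb differ in response was not tested.

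fads2 (chromosome 25, 4133488 to 4148720, minus strand) encodes the desaturase that in zebrafish serves more than one step of polyunsaturated synthesis. In experiment 1 it stood at 47.9, 14.5, 10.9, 30, 7.05 and 7.38 CPM in axenic A, C, D, F, G and H, at 1.59 to 6.37 CPM with a median of 3.19 in re-colonized and at 1.62 to 4.47 CPM with a median of 3.33 in conventional heads. All 6 axenic libraries lay above all 12 colonized ones, yet they spanned a wide range, with A and F far above G and H. fads2 rose by 2.59 ± 0.41 on the log2 scale against conventional (edgeR adjusted p = 7.98e-05) and 2.39 ± 0.40 against re-colonized heads (edgeR adjusted p = 0.00015). Without A and F it was 1.61 ± 0.28 and 1.41 ± 0.28 and still passed (edgeR adjusted p = 0.000675 and 0.00192).

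In experiment 2 fads2 stood at 10.7, 22.0, 29.3 and 69.2 CPM in axenic 1, 3, 4 and 7. It ran from 1.94 through a median of 8.01 to 10.6 CPM in re-colonized and from 2.34 through 6.41 to 10.3 CPM in conventional heads. All 4 axenic libraries were above all 14 colonized ones, although axenic 1 exceeded the highest of them, re-colonized 5, by little. Its log2 fold change was 2.38 ± 0.47 against conventional (edgeR adjusted p = 0.00294) and 2.37 ± 0.46 against re-colonized heads (edgeR adjusted p = 0.00449). Without axenic 7 it was 1.67 ± 0.46 against either group and did not pass (edgeR adjusted p = 0.0674 and 0.0916). With re-colonized 1 and 7 left out as well, the value against conventional heads was 1.69 ± 0.36 and passed (edgeR adjusted p = 0.0129), and that against re-colonized heads was 1.32 ± 0.39 and did not (edgeR adjusted p = 0.185).

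elovl2 (chromosome 24, 8861272 to 8887826, minus strand) encodes the elongase of long polyunsaturated chains on the way to docosahexaenoic acid, the main omega-3 acid of retina and brain. In experiment 1 it stood at 51.4, 31.0, 13.7, 51.4, 15.6 and 14.5 CPM in axenic A, C, D, F, G and H, at 5.28 to 10.7 CPM with a median of 8.79 in re-colonized and at 6.01 to 10.99 CPM with a median of 9.04 in conventional heads. All 6 axenic libraries lay above all 12 colonized ones, with A and F highest as for fads2. elovl2 rose by 1.76 ± 0.29 on the log2 scale against conventional (edgeR adjusted p = 0.000131) and 1.81 ± 0.29 against re-colonized heads (edgeR adjusted p = 9.16e-05). Without A and F it was 1.10 ± 0.22 and 1.15 ± 0.22 and still passed (edgeR adjusted p = 0.00187 and 0.00113).

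In experiment 2 elovl2 stood at 2.69, 6.42, 3.42 and 15.3 CPM in axenic 1, 3, 4 and 7, at 0.774 to 4.09 CPM with a median of 1.59 in re-colonized and at 0.208 to 2.46 CPM with a median of 1.66 in conventional heads. All 4 axenic libraries were above the conventional range, and axenic 3 and 7 were above the re-colonized range. Its log2 fold change was 2.27 ± 0.50 against conventional (edgeR adjusted p = 0.00745) and 1.76 ± 0.49 against re-colonized heads (edgeR adjusted p = 0.0426). Without axenic 7 it was 1.49 ± 0.51 and 1.01 ± 0.50 and did not pass (edgeR adjusted p = 0.154 and 0.524). The call against re-colonized heads was also lost without re-colonized 1, 2, 3, 4, 5 or 7, axenic 3, or conventional 4 or 6, at log2 fold changes of 1.60 to 1.87 (edgeR adjusted p = 0.0539 to 0.106), and without re-colonized 1 and 7 together (1.46, edgeR adjusted p = 0.169).

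elovl5 (chromosome 13, 2394264 to 2417410, plus strand) encodes the elongase that acts before elovl2 in the same chain. It was not called in any comparison. Experiment 1 had elovl5 at 11.3, 4.21, 3.48, 12.2, 5.75 and 5.49 CPM in axenic A, C, D, F, G and H, at 5.36 to 7.40 CPM with a median of 6.51 in re-colonized and at 4.49 to 8.64 CPM with a median of 5.88 in conventional heads. Axenic A and F lay above every colonized library and axenic C and D below every one, so the axenic group spread to both sides. The log2 fold change was 0.18 ± 0.23 against conventional and 0.11 ± 0.23 against re-colonized heads (edgeR adjusted p = 0.67 and 0.805). Without A and F together its value changed sign, to −0.40 ± 0.18 and −0.47 ± 0.18 (edgeR adjusted p = 0.185 and 0.102).

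In experiment 2 elovl5 stood at 1.44, 3.52, 2.68 and 5.37 CPM in axenic 1, 3, 4 and 7, at 1.47 to 2.97 CPM in re-colonized and at 1.20 to 3.52 CPM in conventional heads, with axenic 7 alone above both groups. Its log2 fold changes were 0.67 ± 0.32 and 0.47 ± 0.32 (edgeR adjusted p = 0.241 and 0.556). Without axenic 7 they were 0.27 ± 0.34 and 0.09 ± 0.34 (edgeR adjusted p = 0.781 and 0.974).

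**Figure D2:**
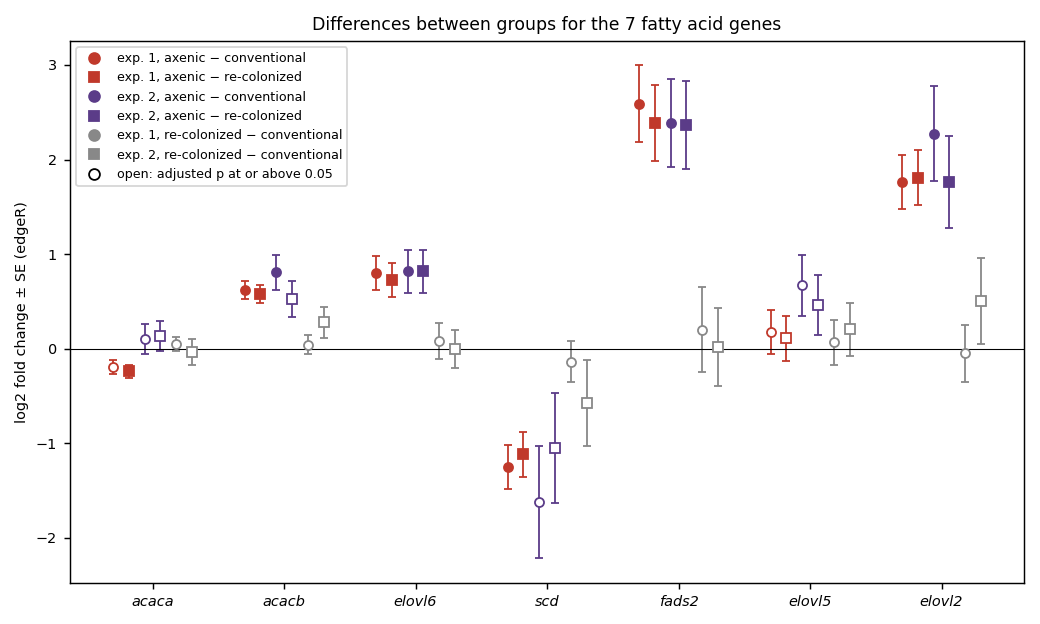
Log2 fold change from edgeR (vertical axis, bars 1 SE) of the 7 genes in 6 comparisons, filled where the adjusted p is below 0.05. fads2 and elovl2 lie between 1.76 and 2.59 in all 4 axenic comparisons, scd lies below 0, and the values of re-colonized against conventional heads, all open, lie between −0.57 and 0.51.

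The plot of fold changes sets both experiments side by side. The difference between them was tested itself, as an interaction over 36 libraries and 21208 genes. None of the 7 genes differed between experiments in axenic against conventional or in axenic against re-colonized heads by edgeR, DESeq2 or limma voom, where edgeR called 0.0990% of all genes (0.0660% higher and 0.0330% lower in experiment 1) and 0.00%. At an unadjusted edgeR p below 0.05 there were 0 members and 1 member, acaca against re-colonized heads (a difference of −0.33 ± 0.16, experiment 1 minus experiment 2). The 95% intervals of the differences were wide, from −1.01 to 1.60 for fads2 and from −1.59 to 0.70 for elovl2 against conventional heads, so the experiments may still differ by that much.

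**Figure D3:**
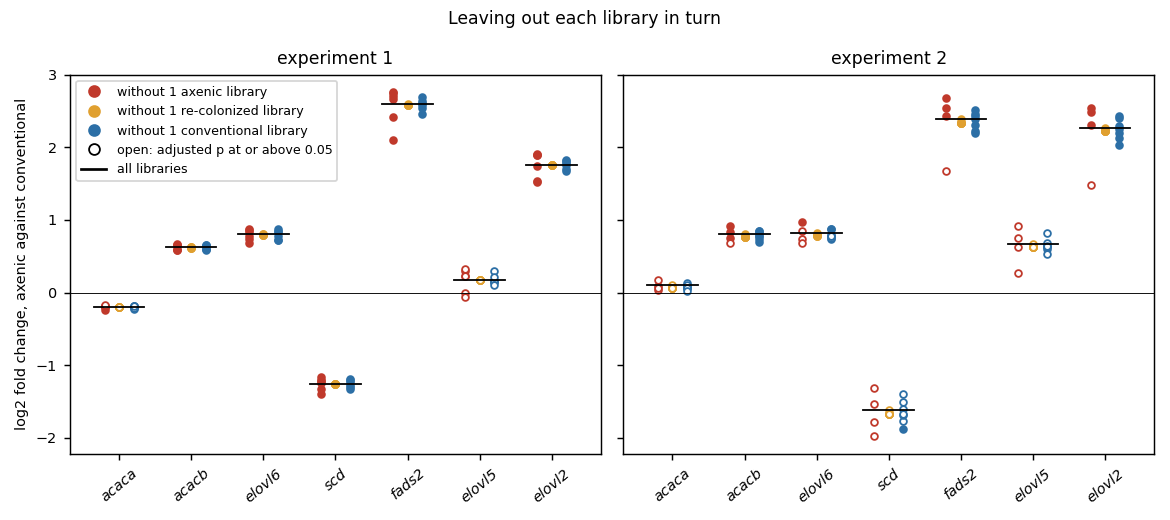
Log2 fold change of axenic against conventional heads (vertical axis) with each library left out in turn, coloured by the group of the library left out, with the value from all libraries as a line; open points have an edgeR adjusted p at or above 0.05. In experiment 2 the value of fads2 without axenic 7 is 1.67, against 2.38 with all libraries.

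Leaving out single libraries, as plotted for the comparison with conventional heads, ended no call of 5 of the genes in experiment 1. There fads2 stayed between 2.10 and 2.77, elovl2 between 1.52 and 1.91, acacb between 0.58 and 0.67, elovl6 between 0.69 and 0.87 and scd between −1.39 and −1.16. In experiment 2 leaving out axenic 7 lowered fads2 from 2.38 to 1.67 and elovl2 from 2.27 to 1.49. Without axenic 7 none of the 7 genes was called by edgeR against either colonized group.

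Markers of liver and intestine were measured in the head pools. The sum of 20 liver markers, all of them above 0 in every group, ran from 3035 to 4083 CPM in axenic, 1508 to 2931 in re-colonized and 1524 to 2404 in conventional heads of experiment 1, and from 3142 to 4755, 483.2 to 2060 and 1466 to 2629 CPM in experiment 2. In experiment 1, 11 of 19 tested liver markers were higher in axenic than in conventional and 10 of 19 than in re-colonized heads, and in experiment 2, 6 of 20 and 13 of 20 were. Of all genes, 8.89% and 8.67% were called higher in experiment 1, and 3.99% and 3.25% in experiment 2. The axenic libraries lay above all colonized ones in both experiments, as they did for fads2.

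The most abundant liver markers were apoa1b, rbp4 and apoa2 in experiment 1 and apoa1b, fabp10a and cp in experiment 2. apoa1b, an apolipoprotein, stood at 1030, 524.8 and 426 CPM in axenic, re-colonized and conventional heads of experiment 1, and at 1549, 407 and 864.3 CPM in experiment 2. In the same order, rbp4 differed less in experiment 1, at 532.7, 463 and 430.7 CPM, and apoa2 stood at 569.7, 248.6 and 219.3 CPM. In experiment 2 fabp10a stood at 629, 231.4 and 154.4 CPM and cp at 449.3, 144.8 and 232.1 CPM. The apolipoproteins apoa1b and apoa2 thus made up a large part of the axenic liver sum of experiment 1.

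The sum of 18 intestine markers in experiment 1 ran from 3238 to 6440 CPM in axenic, 2640 to 3560 in re-colonized and 2327 to 3621 in conventional heads, and that of 17 in experiment 2 from 2466 to 7941, 606.7 to 3733 and 1835 to 4472 CPM, with all markers above 0 in every group; the ranges of the axenic and colonized libraries overlapped. Of 17 tested, 7 were higher and 2 lower against conventional and 8 higher and 1 lower against re-colonized heads in experiment 1, and 1 was higher in each comparison of experiment 2. The shares of all genes called in either direction were 15.6% and 16.9% in experiment 1, and 6.13% and 3.89% in experiment 2. apobb.1, a gene of lipoprotein export that intestine and liver share, was the most abundant, at 2572, 1713 and 1698 CPM in experiment 1 and 3112, 1032 and 1233 CPM in experiment 2. It made up a large part of the intestine sum, which is therefore no measure of intestine alone. The next most abundant, cel.1 and chia.2, stood at 445.4 and 446.1 CPM in axenic and 401.8 and 375.5 CPM in conventional heads of experiment 1. In experiment 2 they stood at 245.7 and 854.7 CPM in axenic and 304.6 and 845.1 CPM in conventional heads.

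Set against the liver sum, fads2 in experiment 1 came to 1.81 to 12.7 CPM per 1000 CPM of liver markers in axenic (median 3.88), 0.951 to 2.66 in re-colonized (1.64) and 0.781 to 2.44 in conventional heads (1.78). In experiment 2 it came to 3.41 to 15.5 (5.87), 2.13 to 6.80 (4.72) and 1.19 to 5.64 (3.09). The groups overlapped on this scale. elovl2 on the same scale had axenic medians of 6.91 and 1.10 in experiments 1 and 2, beside 3.89 and 1.51 in re-colonized and 4.26 and 0.892 in conventional heads.

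The medians of acacb and elovl6 per liver marker lay closer together in experiment 1. acacb had medians of 15.5, 16.2 and 17.9 CPM per 1000 CPM in axenic, re-colonized and conventional heads of experiment 1, and elovl6 of 1.79, 1.62 and 1.73. In experiment 2 those of acacb were 7.27, 18.5 and 8.04, and those of elovl6 2.22, 4.43 and 2.73. The axenic medians of acaca, elovl5 and scd were lowest. In the same order, acaca had 15.9, 29.5 and 31.8, elovl5 1.57, 2.75 and 3.17 and scd 0.277, 0.91 and 1.24 in experiment 1. In experiment 2 acaca had 32.1, 99.5 and 77.7, elovl5 0.697, 1.39 and 1.21 and scd 0.145, 0.582 and 0.637. These ratios are descriptions, and the part of liver and intestine RNA in the results was not tested.

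Against the intestine sum, fads2 came to 2.07 to 7.43 CPM per 1000 CPM in axenic heads of experiment 1, above the 0.586 to 2.05 of re-colonized and the 0.687 to 1.51 of conventional heads, and to 4.34 to 8.72 in axenic heads of experiment 2, above 0.951 to 3.65 and 0.949 to 3.11. On this scale the axenic libraries lay above all colonized ones in both experiments, though by little in experiment 1 (2.07 beside 2.05). elovl2 did so in experiment 1, at 4.08 to 11.7 beside 1.94 to 3.42 and 2.17 to 4.02, and overlapped in experiment 2, at 0.594 to 1.93 beside 0.522 to 1.72 and 0.113 to 0.697. How many of all genes separate on this scale was not counted. The intestine sum is in large part apobb.1, and the part of intestine RNA in these values was not tested.

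**Figure D4:**
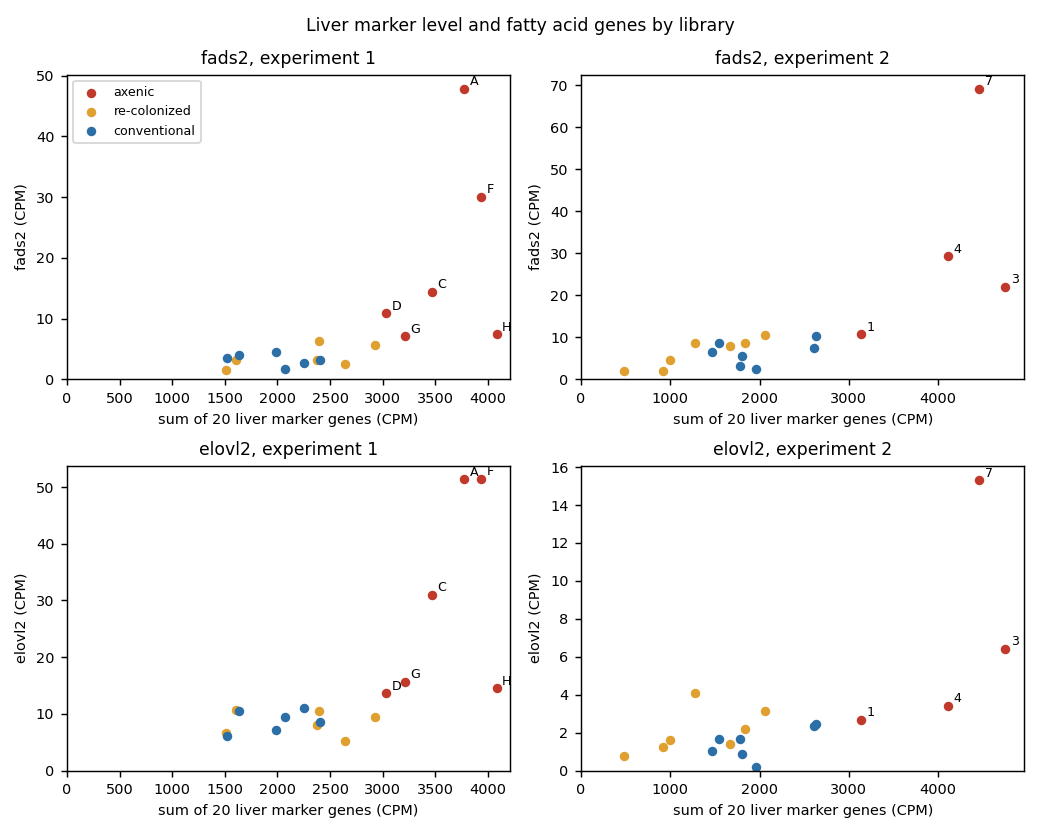
CPM of fads2 (top) and elovl2 (bottom) against the summed CPM of 20 liver markers in each library of experiment 1 (left) and 2 (right), with axenic libraries labelled. All axenic points lie to the right of the colonized ones, and in experiment 2 axenic 1 is lowest among them for both fads2 and the liver sum, at 10.7 and 3142 CPM.

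In experiment 1 fads2 was highest in axenic A, F and C, at 47.9, 30 and 14.5 CPM, and stood at 10.9, 7.38 and 7.05 CPM in D, H and G. The liver sums of A, F, C, D, H and G were 3772, 3938, 3465, 3035, 4083 and 3212 CPM, and their intestine sums 6440, 4394, 3688, 3311, 3557 and 3238 CPM. The 3 libraries with most fads2 thus had the 3 highest intestine sums in the same order, and by the liver sum they ranked 3, 2 and 4, as the plot against liver markers shows. The intestine sum is in large part apobb.1, which liver shares. The shared order is thus not independent of the likeness of fads2 and apobb.1 given below.

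In experiment 2 the order of fads2 among the axenic libraries was 7, 4, 3 and 1. Their intestine sums fell in that same order, at 7941, 5761, 3759 and 2466 CPM, and their liver sums were 4462, 4110, 4755 and 3142 CPM. Axenic 1 was lowest by all 3 measures. As in experiment 1, apobb.1 is a large part of the intestine sum. The part of liver or intestine RNA in the level of fads2 was not tested.

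Markers of fat tissue were scarce, with sums of 17.0 to 27.4 CPM in experiment 1 and 11.9 to 40.2 CPM in experiment 2. Most of the sum was 1 gene, cebpa, with group means of 13.92 to 18.03 CPM in experiment 1 and 20.29 to 25.82 CPM in experiment 2. adipoqa was at 0 in re-colonized heads of experiment 1 and lepa in all 3 groups of experiment 2. Of 3 tested, 1 was lower in axenic than in conventional heads of experiment 1 and the others did not pass in any comparison. Markers of radial glia and myelin summed to 511.4 to 662.4 CPM in experiment 1 and to 2180 (axenic 7) to 4194 CPM in experiment 2, and the groups overlapped. Of them 9 of 16 and 5 of 16 were higher in axenic than in conventional and re-colonized heads of experiment 1, and 2 of 15 and 1 of 15 in experiment 2. Among all genes, 8.89% and 8.67% were called higher in experiment 1, and 3.99% and 3.25% in experiment 2. The shares called in either direction were 15.6% and 16.9% in experiment 1, and 6.13% and 3.89% in experiment 2. The part of fat, glia and myelin RNA in the results was not tested.

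Of 18 genes that supply acetyl-CoA, malonyl-CoA and NADPH, most did not pass. In experiment 1, 3 were higher, 2 lower and 13 not called against either colonized group, beside 15.6% and 16.9% of all genes called, and in experiment 2, 1 was higher and 17 were not called in each comparison, beside 6.13% and 3.89%. idh1, a cytosolic NADPH source, was the gene called in all 4 comparisons, with log2 fold changes of 1.16 ± 0.18 and 0.97 ± 0.18 in experiment 1 (edgeR adjusted p = 5.76e-05 and 0.000378) and 1.04 ± 0.29 and 1.27 ± 0.29 in experiment 2 (edgeR adjusted p = 0.032 and 0.0127). Without axenic 7 its values in experiment 2 were 0.60 and 0.86 and did not pass, and the call against conventional heads was also lost without axenic 4, re-colonized 3, 4, 5, 6 or 7 or conventional 1, 2, 3, 4 or 6, at 0.89 to 1.01 with edgeR adjusted p-values from 0.0502. mlycd, which breaks malonyl-CoA down, was higher in experiment 1 (0.79 ± 0.15 and 0.88 ± 0.15, edgeR adjusted p = 0.000592 and 0.00018), with 0.23 and 0.13 in experiment 2. mid1ip1a, related to the carboxylase activator mid1ip1 and to thrsp of mammals, was lower in experiment 1 (−0.81 ± 0.11 and −1.01 ± 0.11, edgeR adjusted p = 9.29e-06 and 4.37e-07), with −0.02 and −0.26 in experiment 2. hlcs, which attaches biotin to carboxylases, was lower by less in experiment 1 (−0.32 and −0.34, edgeR adjusted p = 0.0353 and 0.0237), with −1.17 and −0.37 in experiment 2. Of these experiment 2 values of mlycd, mid1ip1a and hlcs none passed (edgeR adjusted p = 0.119 to 0.987), although DESeq2 called hlcs against conventional heads (adjusted p = 0.0385). The calls of hlcs were lost without axenic A or C, against conventional heads also without conventional A, F, G or H and against re-colonized heads also without re-colonized D or F, at −0.33 to −0.26.

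Other genes close to members that were not analysed are named here after their values were seen. aclya and aclyb encode ATP citrate lyase, and mid1ip1b and mid1ip1l are further relatives of mid1ip1. aclya stood at 45.6 ± 10.97 CPM in axenic, 42.7 ± 5.76 in re-colonized and 41.7 ± 4.04 in conventional heads of experiment 1 (SD, n = 6 each). None of these 4 genes passed in any of the 4 axenic comparisons (edgeR adjusted p = 0.0813 to 0.977), and the log2 fold change of aclya lay between −0.16 and 0.15.

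Of 16 other elongation enzymes, 5 were higher and 2 lower in axenic than in conventional heads of experiment 1, 6 higher and 3 lower than in re-colonized heads, and 3 were higher than in re-colonized heads of experiment 2, where none was called against conventional heads by edgeR. The shares of all genes called against conventional and re-colonized heads were 15.6% and 16.9% in experiment 1, and 6.13% and 3.89% in experiment 2. elovl4b, an elongase of very long chains in retina and brain, was higher in experiment 1 by 1.51 ± 0.19 and 1.43 ± 0.19 (edgeR adjusted p = 7.64e-06 and 1.23e-05) and against re-colonized heads of experiment 2 by 1.07 ± 0.30 (edgeR adjusted p = 0.0458). That last call was lost without axenic 7 (0.71) and without axenic 4, re-colonized 1, 3, 4, 5, 6 or 7 or conventional 1, 3, 4, 6 or 7 (0.92 to 1.11), and elovl4b was called against conventional heads of experiment 2 without axenic 3 (1.11). hacd2, a dehydratase of the elongation cycle, was higher in experiment 1 (0.72 ± 0.15 and 0.82 ± 0.15, edgeR adjusted p = 0.00163 and 0.000477) and against re-colonized heads of experiment 2 (0.75 ± 0.16, edgeR adjusted p = 0.00936).

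Other elongases were lower in experiment 1. elovl6l, the close relative of elovl6 in fish, had log2 fold changes of −1.04 ± 0.17 and −1.11 ± 0.17 (edgeR adjusted p = 0.000117 and 4.81e-05), and elovl7b, an elongase of saturated and polyunsaturated chains, of −1.31 ± 0.33 and −1.49 ± 0.33 (edgeR adjusted p = 0.00741 and 0.00231). In experiment 2 their values were −0.07 and −0.34 for elovl6l and −0.80 and −0.36 for elovl7b, and none passed (edgeR adjusted p = 0.429 to 0.942).

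Of 9 other desaturation genes, 1 was higher against each colonized group of experiment 1: cyb5a, the cytochrome b5 that hands electrons to desaturases (0.62 ± 0.14 and 0.53 ± 0.14, edgeR adjusted p = 0.00316 and 0.00911). Mitochondrial fatty acid synthesis, which makes lipoic acid precursors apart from the cytosolic pathway, had 2 of 9 genes higher against each colonized group of experiment 1, ndufab1a and ndufab1b (log2 fold changes of 0.51 to 0.62, that of ndufab1b against re-colonized heads lost without axenic C at 0.40), which encode the acyl carrier protein that is also a subunit of respiratory complex I, and 1 lower against conventional heads. In experiment 2 none of these genes was called by edgeR. Among all genes, 15.6% and 16.9% were called in experiment 1, and 6.13% and 3.89% in experiment 2.

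**Figure D5:**
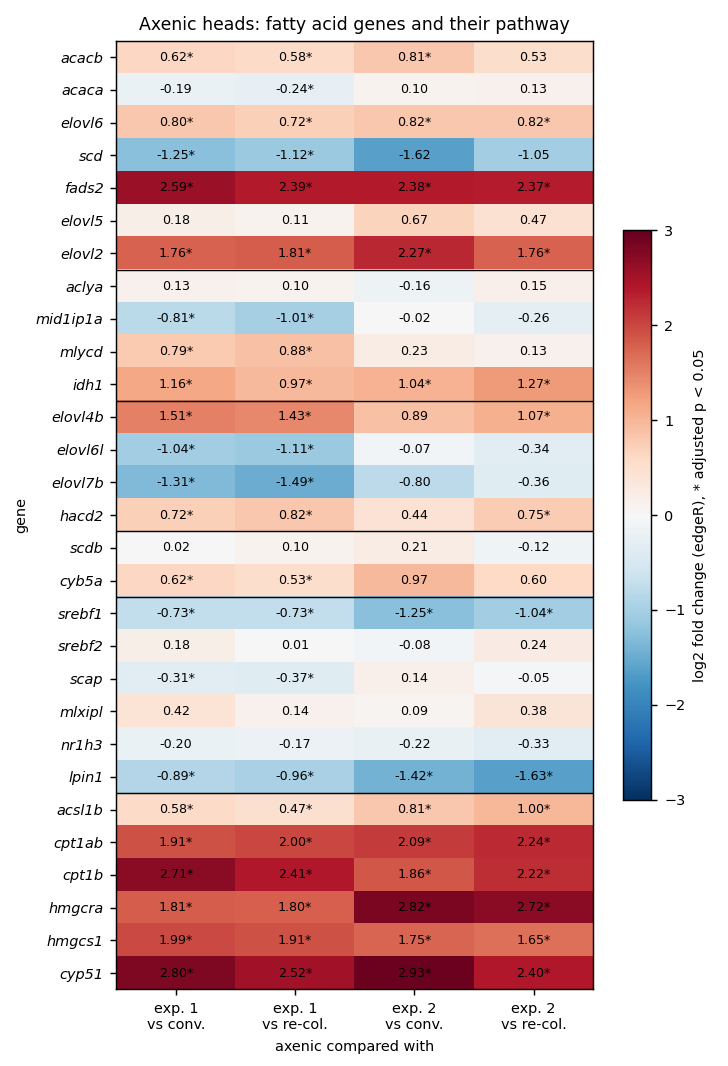
Log2 fold change from edgeR (colour and printed value, * adjusted p below 0.05) of the 7 genes and of genes of their pathway in axenic heads against each colonized group of each experiment. srebf1 and lpin1 are negative and marked in all 4 columns, while cpt1ab, cpt1b, hmgcra, hmgcs1 and cyp51 are positive and marked in all 4. Most pathway genes were named because they were called against both colonized groups of experiment 1, so their marks there follow from that choice. Not every named gene is shown. Among those left out, angptl4 was called in all 4 comparisons, and acadm and msmo1 were not.

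The heat map places the 7 genes beside their regulators. Of 25 genes that control lipid synthesis, 3 were lower in axenic than in conventional and 4 lower than in re-colonized heads of experiment 1, 2 were lower in each comparison of experiment 2, and the others did not pass. Among all genes, 6.71% and 8.27% were lower in experiment 1, and 2.15% and 0.640% in experiment 2. In either direction 15.6% and 16.9% of all genes were called in experiment 1, and 6.13% and 3.89% in experiment 2. srebf1, the SREBP-1 gene, stood at 61.1 ± 15.5 CPM in axenic, 101.7 ± 12.5 in re-colonized and 101.1 ± 6.92 in conventional heads of experiment 1 (SD, n = 6 each). In experiment 2 it stood at 50.7 ± 2.67 (SD, n = 4), 104.2 ± 16.7 and 120.2 ± 17.5 CPM (SD, n = 7 each). In both experiments the highest axenic library, at 87.1 and 54.5 CPM, was below the lowest colonized one, at 90.7 and 80.9 CPM. The log2 fold change of srebf1 was −0.73 ± 0.12 against either group in experiment 1 (edgeR adjusted p = 0.000153 against conventional and 0.00012 against re-colonized heads), and −1.25 ± 0.18 and −1.04 ± 0.18 in experiment 2 (edgeR adjusted p = 0.000197 and 0.00151).

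lpin1, a phosphatidate phosphatase that also acts on gene control, stood at 176.1 ± 44.6, 343 ± 22.3 and 325 ± 33.9 CPM in axenic, re-colonized and conventional heads of experiment 1 (SD, n = 6 each). In experiment 2 it stood at 60.5 ± 12.2 (SD, n = 4), 187.6 ± 37.9 and 162.1 ± 31.6 CPM (SD, n = 7 each). It fell by 0.89 ± 0.12 and 0.96 ± 0.12 on the log2 scale in experiment 1 (edgeR adjusted p = 2.37e-05 and 7.31e-06) and by 1.42 ± 0.21 and 1.63 ± 0.22 in experiment 2 (edgeR adjusted p = 0.000303 and 0.000203). The calls of srebf1 and lpin1 held under every alternative that was run. scap, which escorts SREBP proteins, was lower in experiment 1 (−0.31 and −0.37, edgeR adjusted p = 0.0429 and 0.015), with 0.14 and −0.05 in experiment 2; the call against conventional heads was lost without axenic A, C or D or conventional A, B or F, at −0.30 to −0.26.

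srebf2, which drives sterol synthesis, mlxipl, the sugar-sensing factor ChREBP, and nr1h3, the liver X receptor, are named after their values were seen. Their log2 fold changes lay between −0.08 and 0.24, 0.09 and 0.42, and −0.33 and −0.17, and none passed in the 4 comparisons (edgeR adjusted p = 0.226 to 0.962).

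Of 25 genes that activate and store fatty acids, 4 were higher and 1 lower against conventional and 5 higher and 2 lower against re-colonized heads of experiment 1. In experiment 2, 1 of 26 was higher in each comparison. The shares of all genes called were 15.6% and 16.9% in experiment 1, and 6.13% and 3.89% in experiment 2. agpat3 and dgat1a, acyltransferases of glycerolipid synthesis, were higher in experiment 1 (0.33 to 0.37 and 0.53 to 0.56) and did not pass in experiment 2 (0.30 to 0.46, edgeR adjusted p = 0.138 to 0.475); the calls of dgat1a were lost without axenic C, and without conventional F or, against re-colonized heads, without axenic A or F or re-colonized B or F. The gene called in experiment 2 was acsl1b, which links fatty acids to coenzyme A, with log2 fold changes of 0.58 ± 0.12 and 0.47 ± 0.12 in experiment 1 (edgeR adjusted p = 0.000921 and 0.0055) and 0.81 ± 0.23 and 1.00 ± 0.23 in experiment 2 (edgeR adjusted p = 0.0411 and 0.0158), where its values without axenic 7 were 0.46 and 0.67 and did not pass. In experiment 2 both calls were also lost without axenic 4, and that against conventional heads without re-colonized 3, 4, 5, 6 or 7 or conventional 1, 3, 4, 6 or 7, at 0.69 to 0.92. mfsd2ab, a carrier of lipids with docosahexaenoic acid into brain and eye, was lower in experiment 1 (−0.33 and −0.35, edgeR adjusted p = 0.048 and 0.032). Its call against conventional heads was lost without axenic A, C, D, G or H, re-colonized D, F or G or conventional F, G or H, and that against re-colonized heads without axenic A, G or H or re-colonized B, D, E or F, at −0.35 to −0.23. It stood at 0.28 and 0.15 in experiment 2 (edgeR adjusted p = 0.516 and 0.819).

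Against conventional and re-colonized heads, 8.89% and 8.67% of all genes were higher in experiment 1, and 3.99% and 3.25% in experiment 2. Beside the carboxylases, 13 of 21 genes of carnitine-dependent oxidation and its regulators were higher against each colonized group of experiment 1, with 2 and 3 lower, and 9 and 10 of 21 were higher in experiment 2. They include cpt1ab and cpt1b, carnitine palmitoyltransferases that malonyl-CoA inhibits, at log2 fold changes of 1.91 to 2.24 and 1.86 to 2.71, and angptl4, an inhibitor of lipoprotein lipase, at 2.20 to 2.62. acadm, a dehydrogenase of medium-length chains, rose in experiment 1 (0.74 and 0.79, edgeR adjusted p = 4.12e-06 and 1.5e-06), with 0.78 and 0.93 in experiment 2 (edgeR adjusted p = 0.109 and 0.07), where it passed against both groups without axenic 1 (1.01 and 1.16), against re-colonized heads without axenic 3 (1.09) and against conventional heads without conventional 7 (0.94). Of 23 tested genes of sterol synthesis and uptake, 16 were higher against conventional and 17 against re-colonized heads of experiment 1, with 1 lower in the latter, and 9 of 24 were higher in each comparison of experiment 2, cyp51, hmgcra and hmgcs1 among them at 2.40 to 2.93, 1.80 to 2.82 and 1.65 to 1.99. msmo1 stood at 1.51 to 2.00 and missed the threshold against re-colonized heads of experiment 2 (edgeR adjusted p = 0.0524), which it passed without axenic 1 or 4 or re-colonized 6 (1.88 or above). Its call against conventional heads there was lost without axenic 7 (1.37, edgeR adjusted p = 0.174) and by limma voom (adjusted p = 0.0654).

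The 3 members with the smallest adjusted p against conventional heads of experiment 1, acacb, fads2 and elovl2, were followed across libraries by correlating each of 16135 genes with them, on deviations of log2 CPM from the group mean over the 18 libraries of each experiment. These correlations are descriptions, since the libraries of an experiment share preparation and scaling. The genes most like fads2 were apobb.1 (Pearson r = 0.82 and 0.79 in experiments 1 and 2), si:ch1073-13h15.3 (0.77 and 0.84), cyp51 (0.80 and 0.77) and pygma (0.77 and 0.79). Those most like elovl2 were cyp51 (0.81 and 0.84), fads2 itself (0.75 and 0.80), postnb (0.74 and 0.72) and apobb.1 (0.77 and 0.72). Spearman's rho for these 8 pairs lay between 0.64 and 0.77 in experiment 1 and between 0.54 and 0.85 in experiment 2.

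In experiment 1 the relations of fads2 and elovl2 rest in part on the axenic libraries with the highest values. Without the 2 libraries farthest from the median, axenic A and F in experiment 1, r lay between 0.57 and 0.76 for these pairs, and that of fads2 with elovl2 fell from 0.75 to 0.57. In experiment 2, where the 2 libraries left out were axenic 1 and re-colonized 1 for fads2 and axenic 7 and conventional 3 for elovl2, r lay between 0.54 and 0.80. For the genes most like fads2 this kept axenic 7, its highest library, so their dependence on that library was not examined. The pair of elovl2 with fads2 had r = 0.71 without axenic 7 and conventional 3, beside 0.80 with all libraries. acacb followed other genes, with BX088524.3 (0.76 and 0.77), MYO1D (0.72 and 0.77) and slc29a1b (0.74 and 0.71) among those most like it. Spearman's rho for these 3 lay between 0.67 and 0.80, and r without the 2 farthest libraries between 0.62 and 0.84.

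Among the members, acacb had r = 0.56 and 0.33 with fads2 and 0.30 and 0.38 with elovl2 in experiments 1 and 2. scd had r = −0.56 and 0.20 with fads2, so its relation did not repeat. elovl6 had r = 0.60 with fads2 and 0.55 with elovl2 in experiment 1, beside −0.13 and −0.15 in experiment 2. Of the pairs of members computed, which all hold acacb, fads2 or elovl2, that of fads2 with elovl2 had the highest r in both experiments.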

How the data were processed

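Counts are the authors' deposited estimated counts per gene, not normalized, and they need not be whole: 9.44% (experiment 1) and 17.3% (experiment 2) were over 0.01 away from one. They were rounded to whole numbers, and the test designed for counts was kept. Per the submitters' processing notes, bcl2fastq, Partek 8.0.19.0428 and STAR 2.5.3a were used with GRCz11. Experiment 1 was, per the labels' protocols, prepared by a contract laboratory as stranded, paired-end libraries, and experiment 2 in the study's own. The sources used here do not give the gene annotation or whether counting used the strand, so overlapping genes or close copies, such as members of the elovl family or scd and scdb, could share reads.

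edgeR 4.0.16 in R 4.3.3 (quasi-likelihood fit of group means, TMM, filterByExpr) was run on the 18 libraries of each experiment, 19727 and 20169 genes, two-sided, and interactions on 36 libraries. The SE is the absolute log2 fold change over the square root of F, and 95% intervals are 1.96 SE either way. Intervals cover the spread between pools. The procedure was also run on simulated counts that held no libraries set apart and no variation shared by replicate. No result here rests on that run.

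The members, the 8 pathway lists and the 4 marker lists were chosen with earlier results of these data known. Named genes are all members, up to 4 genes per pathway list with a mean of at least 1 CPM called against both colonized groups of experiment 1, and the 4 genes most like each of 3 members. Alternatives were DESeq2 1.42.0, limma 3.58.1 voom with quality weights, DESeq2 size factors, no filter, no structural RNAs, 2 groups alone, a replicate block and each library left out. Chi-square per degree of freedom between libraries of a group was at least 5.24, so none was counted as a duplicate. Coordinates are those of the deposited tables. One gene that the rule for likeness selects is not reported here.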

Additional observations from a re-analysis of the deposited data

Results flagged for a closer look

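Among 66 groups of 4 to 7 libraries examined for a sample far from the others (the 7 members, srebf1, lpin1, scdb and aclya), 3 were flagged, and chance flags about 1 in 20. scd in re-colonized 4 of experiment 2 stood at 1.839 CPM, with the next library of its group at 1.144 CPM. elovl5 in conventional 7 of experiment 2 stood at 3.521 CPM, with the next at 2.183 CPM. lpin1 in conventional H of experiment 1 stood at 391.2 CPM, with the next at 322 CPM, which is farther from the axenic libraries than the rest of its group. None of the members differed between the experiments by the test of the difference.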

How the results depend on the processing

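Counts of members called were within 1.5 times the main count under every alternative that kept all libraries, and no called value changed sign. Leaving out each library gave 5 to 6 called members in either axenic comparison of experiment 1, but 0 to 4 against conventional and 0 to 3 against re-colonized heads of experiment 2, with 0 in each without axenic 7. Without re-colonized 1 and 7 and axenic 7 together, chosen after seeing the data, 1 and 0 were called; the axenic group then holds 3 libraries. Groups share replicate letters or numbers, but the labels tie them to no common spawn or batch, so they were not taken as pairs in the main fit. Correlations of deviations ran from −0.04 to 0.26 (median 0.02, 4 of 13 pairs over 0.1) in experiment 1 and from −0.26 to 0.50 (median 0.19, 11 of 15) in experiment 2, and 5 of 17 and 9 of 18 libraries were closest to their own letter or number, which in experiment 2 is a hint of shared variation from the data, not the design. With the replicate block, 5 and 4 members were called in the axenic comparisons of experiment 1 and 3 and 2 in experiment 2, elovl6 being lost against re-colonized heads of experiment 1 (0.61, edgeR adjusted p = 0.0519) and in both comparisons of experiment 2 (0.72 and 0.73), and acaca against re-colonized heads of experiment 1 (−0.20). The block raised the calls over all genes in experiment 2 from 1237 to 1705 and from 785 to 1092, and in experiment 1 moved them from 3077 to 3148 and from 3343 to 2278. Among other named genes, it ended the calls against re-colonized heads of experiment 1 of ndufab1a (0.39, edgeR adjusted p = 0.0957), ndufab1b (0.28, edgeR adjusted p = 0.266), acsl1b, agpat3, dgat1a, scap, hlcs and mfsd2ab (edgeR adjusted p = 0.0517 to 0.105), those of scap and mfsd2ab against conventional heads (0.0996 and 0.0597) and that of elovl4b against re-colonized heads of experiment 2 (0.0591), and it added hlcs against conventional and msmo1 against re-colonized heads of experiment 2 (0.037 and 0.00315). Over all genes, the alternatives other than single libraries left out called 1618 to 3362 and 1883 to 3685 in experiment 1, and 494 to 2101 and 84 to 1100 in experiment 2, the lowest with libraries left out. The difference between experiments was called for 13 to 164 genes and 0 to 28 genes. Medians over all genes moved by less than 0.1 under every scaling. The scarcest gene, scd, rests on 1 to 59 counts per library, which limits its precision. The causes of these changes were not tested.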
